A study of Homo sapiens with 15 samples.

Results

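Interferon-stimulated genes are the genes that cells switch on when an interferon binds its receptor. Type I interferons act through the receptor chains IFNAR1 and IFNAR2 and the kinases JAK1 and TYK2, which phosphorylate STAT2. With IRF9 it forms part of the complex ISGF3, which binds a promoter element called the interferon-stimulated response element (ISRE). Interferon gamma acts through its own receptor chains and leads to binding at the gamma-activated site (GAS). The proteins made include sensors of viral nucleic acid, antiviral effectors and factors that feed back on the pathway, and many carcinoma lines keep a basal level of them in culture. A list of 49 such genes was taken and each was read from its brightest detected RefSeq probe. Probes were matched by RefSeq accession, and 48 of the 49 genes had at least 1 such probe out of 19483 genes matched on the array. No probe was matched to IFI27.

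The cells were PE/CA-PJ41, an immortalised human oral squamous carcinoma line. By the labels control cells, NCE, carried an empty transfection vector, whereas the study's text calls NCE un-transfected. CYGB+ cells carried the pCMV6-Neo plasmid with human cytoglobin cDNA, a haem protein of the globin family driven here by a viral promoter. They were derived by stable transfection, selection in G418 and cloning rings, and the study names the cytoglobin line as clone LST421. Whether NCE cells went through the same steps is not settled by these sources, so that effects of the transgene, of vector and selection, and of that clone cannot be told apart. Neither group received any other treatment, and cells stood for 24 h in supplemented medium before total RNA was extracted on separate occasions. Each group held 3 biological replicates, measured on 3 array repeats each for NCE (9 arrays) and 2 each for CYGB+ (6 arrays), and the repeats were averaged before testing. The comparison asks which transcripts differ between cytoglobin-expressing and control cells, and here it is read for the interferon-stimulated genes. All levels below are quantile-normalised log2 intensities of the green (Cy3) channel, all differences are CYGB+ minus NCE on that log2 scale, and a gene is called where the limma p adjusted over all 19791 probes tested is under 0.05. Intensities of different probes cannot be set against each other, so that levels are compared only within a gene.

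Between 48.9% and 57.3% of spots on an array were well above background. The 8 arrays of slide 1 were all NCE, while slide 2 held 1 NCE array and all 6 CYGB+ arrays, so that slide and group overlap almost completely. The first repeat of CYGB+ replicate 1 had the lowest median correlation with the other arrays (0.944, against 0.967 for the next lowest). All 10 squamous epithelial markers, keratins KRT5 and KRT14 and TP63 among them, were detected in both groups, whereas the fibroblast genes COL3A1 and PDGFRB and the leukocyte genes PTPRC and CD3E fell short of detection in both groups. Other genes of these lists were detected. The leukocyte gene CD14 was well above background on all 15 arrays. The endothelial gene CDH5 was so on 8 of 9 NCE and 6 of 6 CYGB+ arrays, and the fibroblast gene COL1A1 on 7 of 9 and 6 of 6. These genes were tested and not called. Of the squamous markers, ITGB4 was called lower (-0.80, SE 0.21, adjusted p = 0.0487). The CYGB probe did not separate the samples as labelled. It read 12.85, 13.16 and 12.96 in the NCE replicates and 12.37, 13.42 and 13.01 in the CYGB+ replicates. The difference was -0.05 (SE 0.26, adjusted p = 0.915), and its sign turned in 4 of 20 other ways of processing. Some of these ways change only the error or the filter and cannot turn a sign. The study calls the parent line non-cytoglobin expressing, yet the CYGB probe was well above background on all 9 NCE and all 6 CYGB+ arrays. The study's methods also put control RNA in Cy5, whereas the labels give Cy3 (green) for every sample. The reason for the high NCE signal was not tested. The position of this probe relative to the cDNA is unknown here, so it is no check of the labels. Every direction below rests on the sample labels alone.

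Most interferon-stimulated genes did not pass the test, and the few that did included both directions. Of the 49, 40 were tested. OASL, a member of the oligoadenylate synthetase family, rose 2.28-fold in cells labelled CYGB+, while the transcription factors IRF7 and STAT2 fell by 1.86-fold and 1.75-fold and EPSTI1, an epithelial stromal interaction gene, fell by 1.90-fold. The other 36 tested members were not called. Of the 40, 1 was thus called higher, where 6.25% of all probes were, and 3 were called lower, where 5.38% of all probes were, so that the share called was near the background. The median difference of the 40 was -0.28 on the log2 scale against 0.00137 over all probes tested, and 32 of 40 lay below 0 against 49.9% of all probes. Of the 40, OAS1 had entered the test through the NCE arrays alone, and the remaining 39 had a median of -0.28 with 31 below 0. The 3 CYGB+ values all lay below the 3 NCE values for 11 members (17% of all probes) and all above them for 2, OASL and LGALS3BP (17.8% of all probes). Fewer cells making a transcript and less of it per cell cannot be told apart in these bulk samples.

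**Figure D1:**
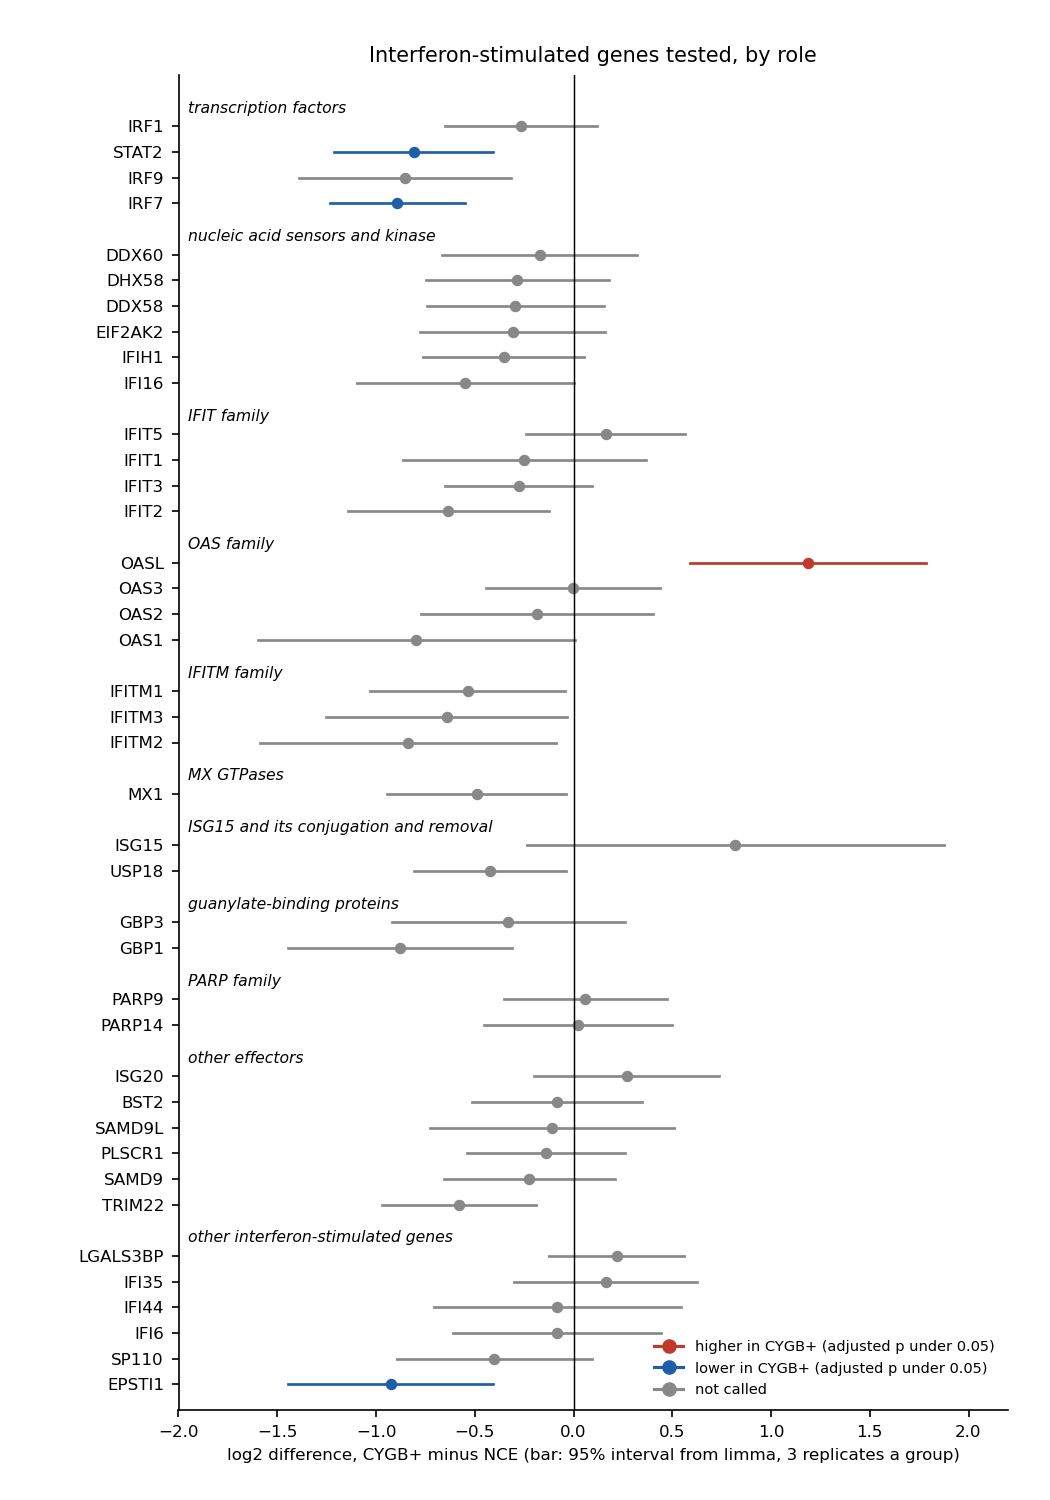
Log2 difference (CYGB+ minus NCE, horizontal axis) of the 40 tested interferon-stimulated genes grouped by role, with 95% intervals from the limma fit of 3 replicates a group. OASL at 1.19 stands alone on the right, all 4 transcription factors lie left of 0, and most other intervals span 0.

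Replicate by replicate, the median over the 40 members of the level relative to each gene's NCE mean was -0.19, 0.03 and 0.14 in NCE replicates 1 to 3 and -0.29, -0.35 and -0.24 in CYGB+ replicates 1 to 3. All CYGB+ medians therefore lay below all NCE medians, but NCE replicate 1 came within 0.1 of the nearest. The heat map of replicates shows EPSTI1, IRF7, GBP1 and IRF9, the members with the lowest differences, below the NCE range in all 3 CYGB+ replicates, whereas for IFITM2, the next in order, CYGB+ replicate 2 lay within that range.

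**Figure D2:**
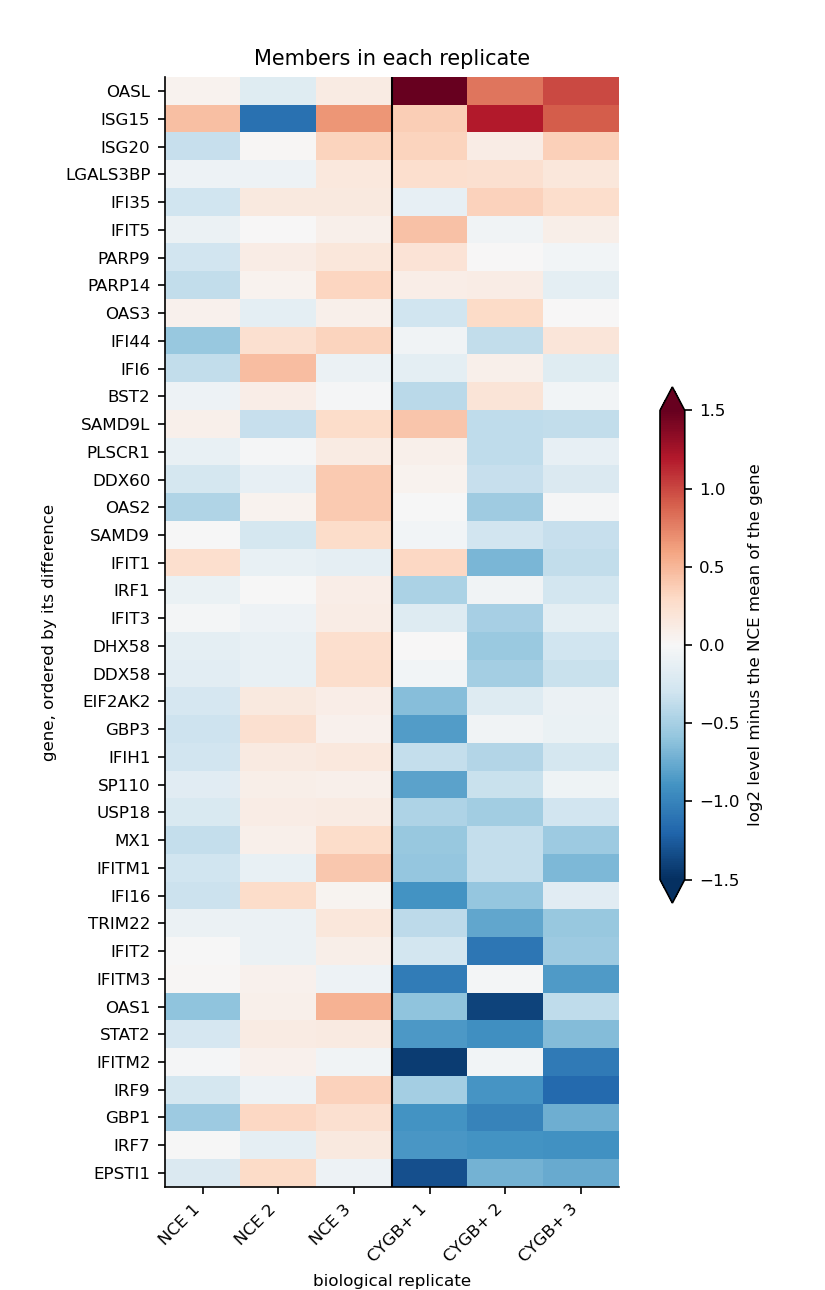
Level of each tested member (rows, ordered by difference) in each biological replicate (columns), as log2 level minus the gene's NCE mean on a colour scale from -1.5 to 1.5. OASL is red and IRF7, STAT2 and EPSTI1 are blue in all 3 CYGB+ replicates, and ISG15 is deep blue in NCE replicate 2.

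The 4 members that encode transcription factors were the only role in which more than 1 gene was called, with 2 lower, 2 not called and a median of -0.83. IRF7, the factor that amplifies type I interferon production, read 11.26, 11.13 and 11.41 in NCE and 10.39, 10.37 and 10.36 in CYGB+. The groups did not overlap and the CYGB+ replicates lay within 0.1 of each other. The difference was -0.89 (SE 0.15, 95% interval -1.23 to -0.55, adjusted p = 0.0110), and among the 4 called members it kept its call most often, in 18 of 20 other ways of processing. STAT2, a subunit of ISGF3, read 11.67, 12.04 and 12.05 in NCE and 11.06, 11.00 and 11.28 in CYGB+. Again every CYGB+ value was below every NCE value, by -0.81 on average (SE 0.17, 95% interval -1.21 to -0.41, adjusted p = 0.0264).

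IRF9, the DNA-binding partner of STAT2 in ISGF3, had a difference of -0.85 with no overlap (7.60, 7.79 and 8.21 against 7.36, 6.98 and 6.70) but missed the threshold (adjusted p = 0.0525), and was called in 6 of 20 other ways of processing. IRF1, an early factor of the interferon gamma response, was at -0.26 (adjusted p = 0.332), and at -0.06 on slide 2 alone. Here and below, slide 2 alone has NCE replicate 1 as its only control, so slide and replicate cannot be told apart in it. Without NCE replicate 3 neither IRF7 (-0.82, adjusted p = 0.0584) nor STAT2 (-0.74, adjusted p = 0.110) passed, and STAT2 also did not pass without NCE replicate 2 (adjusted p = 0.115) or CYGB+ replicate 2 (adjusted p = 0.0648).

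The sequence just before the transcription start was searched for a core of the element that ISGF3 binds. RefSeq promoters (GRCh38.p14) were matched for 39 of the 49 genes, and the 250 bases before the start were searched on both strands for the ISRE core GAAANNGAAA and for GAS, TTCNNNGAA. The ISRE core was in 22 of the 39 (56.4%) against 3.02% of 35116 promoters of the table, and GAS was in 11 (28.2%) against 6.57%. For each member only the first promoter listed was used, whereas the share of the table counts every promoter. Both were present in 6 members and neither in 12, and matches of the 2 motifs can share bases. DHX58, GBP2, IFIT2, IFITM2, IRF7, MX2, OAS2, OASL, TRIM22 and USP18 had no entry. The promoters of the called members EPSTI1 and STAT2 are shown, together with those of ISG15 and IFITM3, which are textbook targets of ISGF3 and were not called. Sequences run 5' to 3' on the gene's strand and capitals mark a match to either motif.
EPSTI1: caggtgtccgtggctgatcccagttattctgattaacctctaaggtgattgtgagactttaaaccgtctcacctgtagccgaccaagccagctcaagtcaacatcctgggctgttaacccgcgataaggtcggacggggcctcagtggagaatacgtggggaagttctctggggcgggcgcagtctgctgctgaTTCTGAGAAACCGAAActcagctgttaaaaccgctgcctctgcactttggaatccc
STAT2: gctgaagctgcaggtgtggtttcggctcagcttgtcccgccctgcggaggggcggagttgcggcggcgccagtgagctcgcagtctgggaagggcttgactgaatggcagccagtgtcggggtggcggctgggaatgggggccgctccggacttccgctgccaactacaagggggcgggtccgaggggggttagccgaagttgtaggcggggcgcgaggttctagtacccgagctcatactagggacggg
ISG15: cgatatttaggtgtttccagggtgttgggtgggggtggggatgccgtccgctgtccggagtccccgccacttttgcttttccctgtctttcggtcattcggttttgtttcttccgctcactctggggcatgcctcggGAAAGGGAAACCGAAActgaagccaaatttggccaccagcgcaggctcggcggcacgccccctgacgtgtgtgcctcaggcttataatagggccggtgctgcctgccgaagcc
IFITM3: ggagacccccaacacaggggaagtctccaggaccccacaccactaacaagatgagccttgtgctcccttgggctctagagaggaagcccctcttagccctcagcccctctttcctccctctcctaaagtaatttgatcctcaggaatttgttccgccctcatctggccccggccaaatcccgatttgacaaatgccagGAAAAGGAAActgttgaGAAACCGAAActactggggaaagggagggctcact
They lie at chr13:42992242-42992491, minus strand (EPSTI1), chr12:56360108-56360357, minus strand (STAT2), chr1:1013247-1013496, plus strand (ISG15) and chr11:320861-321110, minus strand (IFITM3). EPSTI1 held 1 ISRE core that ended 40 bases before the start, with a GAS match overlapping it, and was called lower. ISG15 and IFITM3 each held 2 matches to the ISRE core, the nearest 97 and 25 bases before the start, and were not called. The 2 matches of ISG15 share bases in a single stretch, whereas those of IFITM3 are separate. STAT2 held neither motif in this window and was called lower. Among the 19 tested members with an ISRE core, 14 lay below 0 with a median difference of -0.14 and a range from -0.93 to 0.82. Among the 13 without one, 11 lay below 0 with a median of -0.33 and a range from -0.85 to 0.16. A match is a description of the letters and not evidence of binding, and the lack of a match does not show that the element is absent.

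All 6 sensors of nucleic acid and kinase genes lay below 0 and none was called, with a median of -0.30. EIF2AK2, the kinase PKR that halts translation on binding double-stranded RNA, read 12.20, 12.60 and 12.55 in NCE and 11.81, 12.25 and 12.36 in CYGB+. The groups overlapped and the difference was -0.31 (SE 0.20, 95% interval -0.78 to 0.16, adjusted p = 0.352), and -0.03 on slide 2 alone. The RIG-I-like receptors DDX58, IFIH1 and DHX58 were at -0.29, -0.35 and -0.28, and at -0.04, -0.19 and -0.30 on slide 2 alone. IFI16, a sensor of DNA, had the lowest difference of the role at -0.55 (adjusted p = 0.176). DDX60 was at -0.17, and its sign turned in 1 of 20 other ways of processing.

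The OAS family makes the second messenger that activates RNase L, and OASL is its member without that enzyme activity. OASL read 7.58, 7.34 and 7.64 in NCE and 9.28, 8.33 and 8.51 in CYGB+. Every CYGB+ value was above every NCE value, with CYGB+ replicate 1 the highest. The difference was 1.19 (SE 0.26, 95% interval 0.59 to 1.78, adjusted p = 0.0278). OAS1, OAS2 and OAS3, which lie side by side on chromosome 12, gave -0.80, -0.19 and -0.00 and were not called (adjusted p = 0.176, 0.668 and 0.994). OAS1 was well above background on all 9 NCE arrays and on 4 of 6 CYGB+ arrays. The signs of OAS2 and OAS3 turned in 1 and 8 of 20 other ways of processing. OASL did not pass without NCE replicate 1, 2 or 3 (adjusted p = 0.0691, 0.110 and 0.0736), and it passed without any of the CYGB+ replicates.

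The IFIT proteins bind foreign RNA ends, and their genes form a cluster on chromosome 10. None was called from its brightest probe. IFIT5 read 9.75, 9.84 and 9.91 in NCE and 10.28, 9.78 and 9.93 in CYGB+. These values overlapped, with a difference of 0.16 (SE 0.17, 95% interval -0.24 to 0.57, adjusted p = 0.575). IFIT1 and IFIT3 were at -0.25 and -0.28. IFIT2 had 2 RefSeq probes that gave unequal results. The brighter read -0.63 (SE 0.22, adjusted p = 0.103), and the dimmer read -1.08 (SE 0.15, adjusted p = 0.00638) and was called. Taking the mean of all passing probes of a gene made IFIT2 a called member.

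The IFITM membrane proteins block viral entry, and their genes are neighbours on chromosome 11. All 3 lay below 0 and none was called. IFITM3 read 14.46, 14.51 and 14.37 in NCE and 13.40, 14.42 and 13.59 in CYGB+. CYGB+ replicate 2 lay within the NCE range while the other two lay below it, and the difference was -0.64 (SE 0.26, 95% interval -1.25 to -0.03, adjusted p = 0.153). Without CYGB+ replicate 2 the difference was -0.95 and passed (adjusted p = 0.0249). Without CYGB+ replicate 1 it was -0.44 (adjusted p = 0.298). The first repeat of that replicate, on the least correlated array, read 12.86 where its second read 13.94. Without that array the difference was -0.46 (adjusted p = 0.154). IFITM2 showed the same order of CYGB+ replicates, with 12.32, 13.69 and 12.68 against 13.72, 13.80 and 13.69 in NCE (difference -0.84, adjusted p = 0.133). On the least correlated array IFITM2 read 11.40, against 13.23 on the second repeat of CYGB+ replicate 1. IFITM2 and IFITM3 are near-identical in sequence, and how far their probes share transcripts was not tested. IFITM1 was at -0.54 with no overlap (adjusted p = 0.144).

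ISG15 is the ubiquitin-like modifier of the response, HERC5 and HERC6 attach it or are related ligases, and USP18 removes it. ISG15 read 12.77, 11.20 and 12.97 in NCE and 12.68, 13.50 and 13.22 in CYGB+, which overlapped. The difference was 0.82 (SE 0.46, 95% interval -0.24 to 1.87, adjusted p = 0.276). The low NCE value came from a single array, the second repeat of NCE replicate 2, which read 7.87 where the other repeats of that replicate both read 12.86. With the median of the repeats in place of their mean the difference was 0.23 (adjusted p = 0.526), so that most of its size rested on that array. USP18 was at -0.42 with no overlap between groups (adjusted p = 0.138). HERC5 and HERC6 did not reach the detection limit set for testing.

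**Figure D3:**
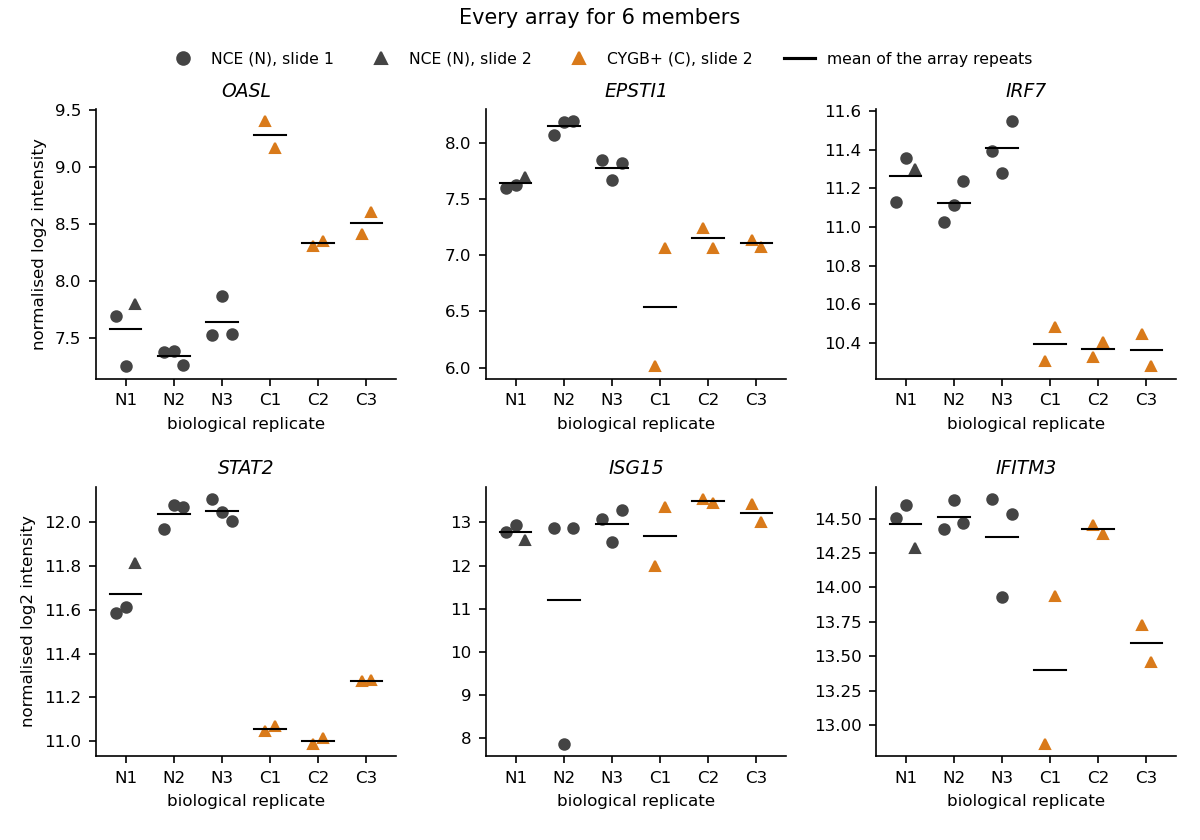
Normalised log2 intensity (vertical axis) on every array for OASL, EPSTI1, IRF7, STAT2, ISG15 and IFITM3, by biological replicate, with a line at the mean of the repeats. Circles are slide 1 and triangles slide 2. For the first 4 genes the NCE array of slide 2 lies with the other NCE arrays, and the lone low ISG15 point at 7.87 is an NCE array.

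MX1, a GTPase that traps viral nucleocapsids, read 8.98, 9.41 and 9.61 in NCE and 8.77, 8.98 and 8.78 in CYGB+. The groups were separated by less than 0.01 and the difference was -0.49 (SE 0.20, 95% interval -0.94 to -0.04, adjusted p = 0.144). It was -0.25 with slide as a covariate and -0.10 on slide 2 alone. GBP3, a guanylate-binding protein, read 10.76, 11.31 and 11.13 in NCE and 10.22, 11.01 and 10.97 in CYGB+. Its values overlapped (difference -0.33, 95% interval -0.92 to 0.26, adjusted p = 0.427), and its sign turned in the 2 fits that take slide into account. GBP1, its neighbour on chromosome 1 and a strong interferon gamma target, read 7.98, 8.84 and 8.77 in NCE and 7.63, 7.53 and 7.80 in CYGB+. The difference was -0.88 with no overlap. It missed the threshold (adjusted p = 0.0572) and passed it with the replicate number as a block (adjusted p = 0.0323), but was -0.11 on slide 2 alone. PARP14, an ADP-ribosyltransferase, read 9.18, 9.60 and 9.87 in NCE and 9.65, 9.66 and 9.41 in CYGB+. The values overlapped and the difference of 0.02 (95% interval -0.45 to 0.50, adjusted p = 0.958) had no stable sign, as for its chromosome 3 neighbour PARP9 (0.06).

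None of the 6 tested genes grouped as other effectors was called, and their median was -0.12. BST2, also called tetherin, which holds budding virions at the cell surface, read 13.19, 13.37 and 13.25 in NCE and 12.87, 13.46 and 13.23 in CYGB+. The NCE values lay inside the CYGB+ range, and the difference of -0.08 (SE 0.19, 95% interval -0.52 to 0.35, adjusted p = 0.801) turned its sign with scaling to the 75th percentile. TRIM22, an antiviral E3 ligase, was the lowest at -0.58 with no overlap (adjusted p = 0.0645). ISG20, an exonuclease, was at 0.27, PLSCR1 at -0.14, SAMD9 at -0.22 and its neighbour SAMD9L at -0.11. A dimmer probe of SAMD9L read -0.54 (SE 0.26, adjusted p = 0.217), and SAMD9L kept its sign in 16 of 19 other ways of processing.

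EPSTI1, grouped with the remaining interferon-stimulated genes, read 7.64, 8.15 and 7.78 in NCE and 6.54, 7.15 and 7.11 in CYGB+. All CYGB+ values lay below all NCE values, and CYGB+ replicate 1 was the lowest, its first repeat, on the least correlated array, reading 6.01 where its second read 7.07. The difference was -0.93 (SE 0.22, 95% interval -1.44 to -0.41, adjusted p = 0.0377). Without that array it was -0.75 (adjusted p = 0.0153), and with normexp background correction it was -0.55 (adjusted p = 0.0327). EPSTI1 did not pass when any 1 of the 6 replicates was left out, with adjusted p from 0.0530 to 0.143. LGALS3BP, a secreted glycoprotein, was at 0.22 with all CYGB+ values above all NCE values by a narrow margin (adjusted p = 0.364). IFI35, IFI44 and IFI6 were at 0.16, -0.08 and -0.08, and SP110, a nuclear body protein, was at -0.40. The signs of IFI44 and IFI6 turned in some ways of processing.

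Members below the detection limit were counted apart. CMPK2, GBP2, HERC5, HERC6, IFI44L, MX2, RSAD2 and XAF1 were not well above background on every array of either group and were not tested. RSAD2, which encodes viperin, was not well above background on any of the 15 arrays, and its neighbour CMPK2 was so on 1 of 9 NCE arrays and on none of the CYGB+ arrays. HERC5 passed on 8 of 9 NCE and 5 of 6 CYGB+ arrays and GBP2 on 7 of 9 and 4 of 6. MX2 passed on 6 of 9 and 5 of 6, HERC6 on 6 of 9 and 2 of 6, XAF1 on 3 of 9 and 1 of 6, and IFI44L on 1 of 9 and none. RSAD2, CMPK2 and IFI44L, which interferon usually induces strongly, were thus at or near background in both groups, whereas IFIT1, IFIT3, ISG15, MX1 and IFI6, also strongly induced as a rule, were well above background on all 15 arrays.

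The 48 genes with a probe lay on 17 chromosomes, and 25 of them lay in clusters with no more than 5 protein-coding genes between neighbouring members. In 13 of the 15 neighbouring pairs no protein-coding gene lay between. None of the 4 called members was in such a cluster, but calls this few cannot tell whether clustered members differ less. Of the clustered genes, CMPK2, GBP2, HERC5, HERC6, IFI44L, MX2 and RSAD2 were not tested. The dimmer probe of IFIT2, which is in a cluster, was called.

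Slide 2 held a single NCE array, the third repeat of NCE replicate 1. On it OASL read 7.80 against 8.31 to 9.40 on the CYGB+ arrays, IRF7 11.30 against 10.28 to 10.48, STAT2 11.82 against 10.99 to 11.28, and EPSTI1 7.70 against 6.01 to 7.24. That array lay on the NCE side for all 4 genes. The differences on this slide alone were 0.91, -0.93, -0.70 and -0.77 in the same order, none of which passed (adjusted p = 0.536, 0.312, 0.502 and 0.542) with a single control sample, assumed to vary like the CYGB+ samples. With all arrays fitted singly and slide as a covariate, IRF7 (-0.94, adjusted p = 0.0109) and STAT2 (-0.83, adjusted p = 0.0337) passed, and OASL (0.90, adjusted p = 0.187) and EPSTI1 (-0.87, adjusted p = 0.262) did not. The median over the 40 members was -0.21 on slide 2 alone, with 28 below 0, and -0.32 with the covariate, with 29 below 0. Set against all arrays, slide 2 alone left 17 of the 40 differences within 1.5 times, made 10 smaller and 9 larger by more than that, and turned the sign of 4, BST2, GBP3, IFI44 and IFI6. The smaller ones included GBP1, MX1, EIF2AK2, DDX58 and IRF1, and the larger ones included IFIT1 (-0.71 in place of -0.25) and IFITM1 (-0.87 in place of -0.54). Slide 2 alone also drops NCE replicates 2 and 3, so slide and replicate cannot be told apart in these changes. For GBP1, MX1, EIF2AK2, DDX58 and IRF1, NCE replicate 1 had the lowest mean of the NCE replicates over its array repeats. It had the lowest for IFITM1 too, and the highest for IFIT1.

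**Figure D4:**
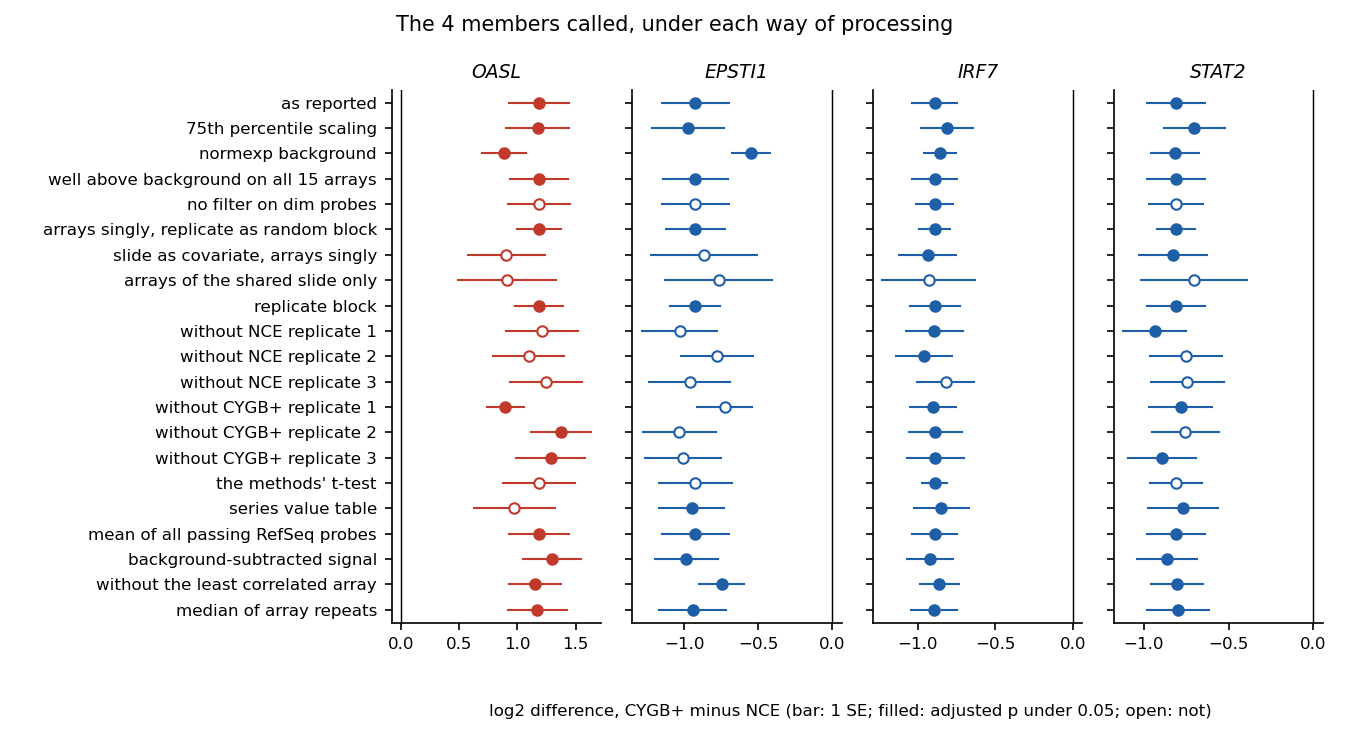
Log2 difference (CYGB+ minus NCE, horizontal axes) with 1 SE of the 4 called members as reported and under 20 other ways of processing. All points of OASL lie above 0 and all points of EPSTI1, IRF7 and STAT2 below 0. In some of these ways the difference itself cannot change. Filled points passed the threshold, 18 of 20 for IRF7, 14 for STAT2, 12 for OASL and 10 for EPSTI1.

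Other genes of the pathway were read from the same fit. Of the 17 interferon genes with a matched probe, 13, among them IFNB1 and IFNG, were not well above background on any array. IFNE, the epithelial type I interferon, was the only one tested and was not called (0.26, adjusted p = 0.658), having entered through the CYGB+ arrays alone. Of the 6 receptor chains none was called higher and 1 was called lower, where 6.25% and 5.38% of all probes were. IFNGR2, the signalling chain of the interferon gamma receptor, read 9.20, 9.27 and 9.58 in NCE and 8.05, 8.40 and 8.35 in CYGB+. The groups lay apart by more than their own spread, with a fall of 2.12-fold (difference -1.09, SE 0.18, adjusted p = 0.0104), and the call was lost on slide 2 alone (-1.07, adjusted p = 0.275) and with the methods' t-test (adjusted p = 0.0537). IFNGR1, the ligand-binding chain, was at 0.01. IFNAR1, a chain of the type I receptor, read 8.56, 8.58 and 8.86 in NCE and 8.33, 7.75 and 8.18 in CYGB+, a difference of -0.58 without overlap that missed the threshold (adjusted p = 0.0955). IFNAR2 read 10.66, 10.31 and 10.61 against 10.47, 9.99 and 10.02, which overlapped (-0.37, adjusted p = 0.248). On slide 2 alone IFNAR1 was at -0.99 (adjusted p = 0.359) and IFNAR2 at -1.06 (adjusted p = 0.309), and with slide as a covariate they were at -1.10 (adjusted p = 0.439) and -1.08 (adjusted p = 0.155). Without the least correlated array both IFNAR1 (-0.91, adjusted p = 0.0248) and IFNAR2 (-0.53, adjusted p = 0.0297) passed.

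None of the 8 tested kinases, STATs and IRFs outside the list was called. JAK1 read 7.73, 7.72 and 7.45 in NCE and 7.03, 7.90 and 8.00 in CYGB+, a difference of 0.01 with no stable sign (adjusted p = 0.989). TYK2 read 7.18, 7.43 and 7.37 against 7.62, 7.75 and 7.82, higher in every CYGB+ replicate but not called (0.41, 95% interval 0.05 to 0.76, adjusted p = 0.124). IRF3, the constitutive factor downstream of the sensors, read 10.77, 10.38 and 10.26 against 10.84, 10.94 and 10.41 and overlapped (0.26, adjusted p = 0.456). Genes of lists with few calls are named with their values known. Over all probes tested, 6.25% were called higher and 5.38% lower, and the counts of each list below are to be read beside these shares. Of 12 nucleic acid sensing genes and adaptors 1 was called higher, the DNA-sensing adaptor STING1 (0.78, adjusted p = 0.0469), and 2 were called lower, the RNA-sensing adaptor MAVS (-0.67, adjusted p = 0.0468) and the nucleotide hydrolase SAMHD1 (-0.87, adjusted p = 0.0376). Of 5 brakes on the pathway 1 was called, the phosphatase PTPN2, which acts on JAK1, at 0.91 (adjusted p = 0.0346). Of 30 further interferon-stimulated genes outside the list 1 was called higher, TDRD7 (0.76, adjusted p = 0.0153), and 2 lower, HELZ2 and RTP4 (-0.85, adjusted p = 0.0468). HELZ2, a helicase, read 10.47, 10.52 and 10.68 in NCE and 9.67, 9.46 and 9.49 in CYGB+. This was a fall of 2.02-fold (difference -1.02, SE 0.15, adjusted p = 0.00762), and the call was kept in 19 of 20 other ways of processing. The median of these 30 genes was -0.12, with 20 below 0, against 49.9% of all probes below 0.

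**Figure D5:**
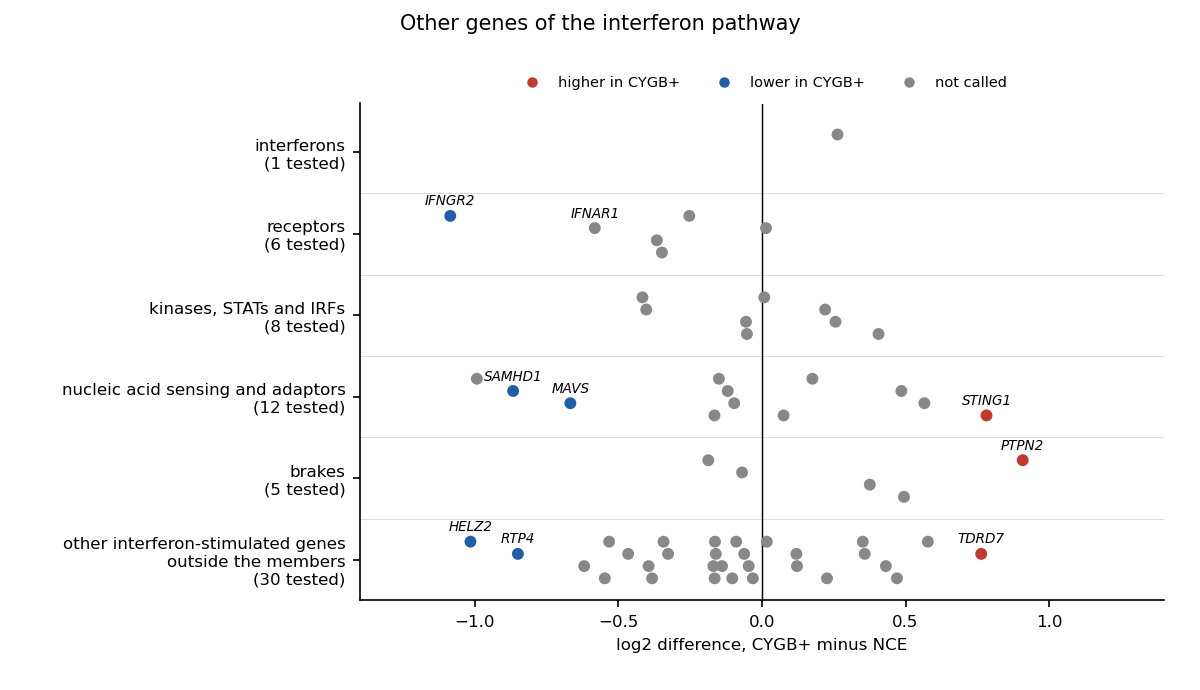
Log2 difference (CYGB+ minus NCE, horizontal axis) of each tested gene of the interferon pathway outside the 49, by list, with points spread vertically for legibility. The called genes are named, as is IFNAR1, which was not called.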

How the data were processed

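Total RNA of PE/CA-PJ41 cells was labelled and hybridised by the authors to Agilent SurePrint G3 Human arrays and scanned with Agilent Feature Extraction 10.7.3.1. The deposited scanner files hold spot intensities of a green and a red channel. The green processed intensity had its background subtracted and was dye-normalised against the red channel by the scanner software. Per the labels every sample was labelled with Cy3 (green), whereas the study's methods put control RNA in Cy5, so that the red channel has no labelled group and was used for no comparison. The deposited series table holds natural log values of 15031 probes matched here, found by comparison with the scanner files to be normalised and centred on the CYGB+ median of each probe, with scale and centring unstated. It served as an alternative.

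Green intensities were taken as log2, flagged outlier spots were left out, spots of a probe were averaged (42405 probes, 15 arrays) and quantile-normalised in R 4.3.3, and array repeats were averaged to 3 biological replicates a group. The 19791 probes well above background on every array of at least 1 group were fitted with limma 3.58.1 (two-sided, Benjamini-Hochberg over all probes, threshold 0.05), and the fit was tested on simulated data. The 3 biological replicates a group limit the precision. Probes were named through their RefSeq accession (25422 of 27310 matched). For a gene with several, the brightest passing probe was used. Same-numbered replicates deviated together (correlations of 0.24, 0.26 and 0.33, against -0.52 to 0.27 for the 6 different-numbered pairs). Every same-numbered pair was above 0.1, but so were some different-numbered pairs, so these correlations do not settle whether the numbers pair the samples. The fit as reported is unpaired. A fit with the number as a block is given where it changes a call. Replicates were separate RNA extractions. Nothing says that they came from separate clones, so p-values measure the spread between these extractions.

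The members, roles and pathway lists were chosen with earlier results of these data known. Values in every replicate are given for CYGB, for called members, for the brightest member of each role without a call, for IFNAR1, IFNAR2, JAK1, TYK2 and IRF3, and for pathway genes called with a log2 difference of at least 1. A further gene that this rule names is not reported here. Other genes with values were chosen after their values were seen. Normexp used the median spot signal, since no mean signal column is in these files. Alternatives covered scaling, background, filters, repeats, slide, replicate block, each replicate left out, the methods' t-test, the series table and all probes of a gene. Background-subtracted signal, leaving out the least correlated array and the median of repeats were added after the data were seen. No fold-change or p-value columns of the authors were used.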

Additional observations from a re-analysis of the deposited data

Results flagged for a closer look

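The red channel, whose RNA the labels assign to no group, also carried signal for these genes. Of the 48 members with a probe, 40 were well above background in red on all 15 arrays, against 39 in green. No comparison was made with these values. They were singled out because the labels assign them to no group. The green values are not wholly apart from them, since the scanner software dye-normalised green against red.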

How the results depend on the processing

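With the replicate block, the members called were 1 higher and 4 lower, GBP1 having joined, and the probes called lower rose from 1065 to 1685. The block changed no other member's call. As reported, 1237 probes were called higher and 1065 lower, and 1 member higher and 3 lower. Without a filter on dim probes the probes were 633 and 563 and the members 0 and 1. With arrays fitted singly the probes were 2412 and 2246 and the members called lower 10. With slide as a covariate the probes were 291 and 426, so that 40.6% of calls were higher in place of 53.7%, and no member (0) was called higher. On slide 2 alone the probes were 57 and 38 and the members 0 and 0, with 2 members at an unadjusted p under 0.05. With the methods' t-test the probes were 456 and 369 and the members 0 and 1. With the series table the probes were 764 and 680 and the members called higher 0. Without the least correlated array the probes were 2073 and 1916 and the members called lower 7. With the median of repeats the probes were 1497 and 1341 and the members called lower 5. Leaving out 1 replicate gave 365 to 1137 probes higher and 286 to 991 lower, with 0 to 1 members higher and 0 to 5 lower. Without NCE replicate 3 limma called no member, with 2 higher and 6 lower at an unadjusted p under 0.05. Of all 19791 probes, 4171 were under that p in either direction, so the member counts were near the background. Without NCE replicate 2 IRF7 was the only member called. The cause of these changes was not tested.

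The median member difference ranged from -0.37 to -0.18 over the 20 alternatives, and 30 of the 40 tested members kept their sign in all of them. Some alternatives could not move a difference, and so could not turn a sign. These were the fit of arrays singly, the replicate block, the methods' t-test and the changes of the filter on dim probes. The mean of all passing probes moved only members with several such probes. The 9 members called under some alternative but not as reported included IRF9, GBP1, IFIT2 and TRIM22. Over the named genes no called value turned its sign. Dim members, 8 of 48, could not be tested, and signal over background limits what can be said of them.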
